A study of Oryza sativa with 6 samples.

Results

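Heat stress transcription factors were followed in embryonic axes of mature rice seeds aged at 40 or 45 °C. They were represented by 29 probe sets of 20 genes, out of 57258 non-control probe sets and 17905 annotated genes on the Affymetrix Rice Genome Array. Members were the probe sets assigned to a single gene whose symbol or synonym begins with HSF, with or without an Os prefix and a class letter, followed by a digit. The gene name table holds 23 such genes, and 3 of them (HSFA6A, HSFB4C and HSFC2B) had no probe set listed under them. The synonyms gave a class for every member: 12 genes with 16 probe sets in class A, 5 genes with 10 probe sets in class B, and 3 genes with 3 probe sets in class C. Only HSFA2D carried its family name as the symbol, and the other members were found by synonym.

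Heat stress factors bind heat shock elements in the promoters of chaperone genes, as trimers that form when misfolded proteins draw chaperones away from them. Class A factors carry activation motifs and drive transcription of heat shock proteins, class B factors lack these motifs and mostly act as repressors or as coregulators of class A, and class C factors are the least studied. In seeds the family is best known from Arabidopsis and sunflower, where HSFA9 is made during embryo maturation and switches on small heat shock proteins that are stored in the dry seed.

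All seeds were of the cultivar Nipponbare and went through the same controlled deterioration scheme, which ages seeds in warm, humid air. It consisted of 3 days at 25 °C and 85% relative humidity, a warm step of 14 days at 85% relative humidity, and 3 days at 25 °C and 32% relative humidity. The warm step was at 40 °C for 3 samples and at 45 °C for the other 3, with 1 array each, and another label field gives its length as 15 days. Unaged or 25 °C seeds were not analysed here, so no value below is a change from fresh seed. The labels do not state whether replicates were separate lots of seed; the p-values therefore cover the variation among these 6 samples only, and that variation may be technical. In bulk tissue, fewer cells of a type and less RNA per cell cannot be told apart.

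The arrays carried the transcripts of a seed embryo: all 8 probe sets of the embryo markers (LEA19, EM, VP1 and the RAB16 group) reached the expression minimum, a mean log2 value of 4 over the 6 arrays, with means of 8.97 to 13.9. Endosperm markers were present too, with 16 of 24 probe sets at or above the minimum, as were 4 of 6 for the aleurone and 4 of 12 for green tissue. The array median of the endosperm list was 5.74 to 6.07 at 40 °C and 5.70 to 6.63 at 45 °C. Of its 10 tested genes 7 were higher at 45 °C, with a median difference of 0.26, while the embryo markers had a median difference of -0.12. Replicate 2 at 40 °C stood apart, with correlations of 0.894 to 0.935 to the other arrays and control transcripts that read 2.99 log2 units higher at the 3-prime than at the 5-prime end, against 1.66 to 2.03 on the other arrays. The bioB probe sets, which read bacterial transcripts spiked into the hybridization mix, averaged 7.16 ± 0.68 (SD, n = 3) on the 40 °C arrays against 8.64 ± 0.14 (SD, n = 3) on the 45 °C arrays in log2 signal, without overlap (exact permutation p = 0.1, two-sided, the smallest that 3 against 3 arrays allow). Most genes were lower at 45 °C: the median log2 difference, 45 °C minus 40 °C, was -0.26 over 11639 tested genes, and 78.7% of them (64.4% of the tested probe sets) were lower at 45 °C. The part of RNA quality, endosperm RNA and spike-in level in the results below was not tested.

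**Figure D1:**
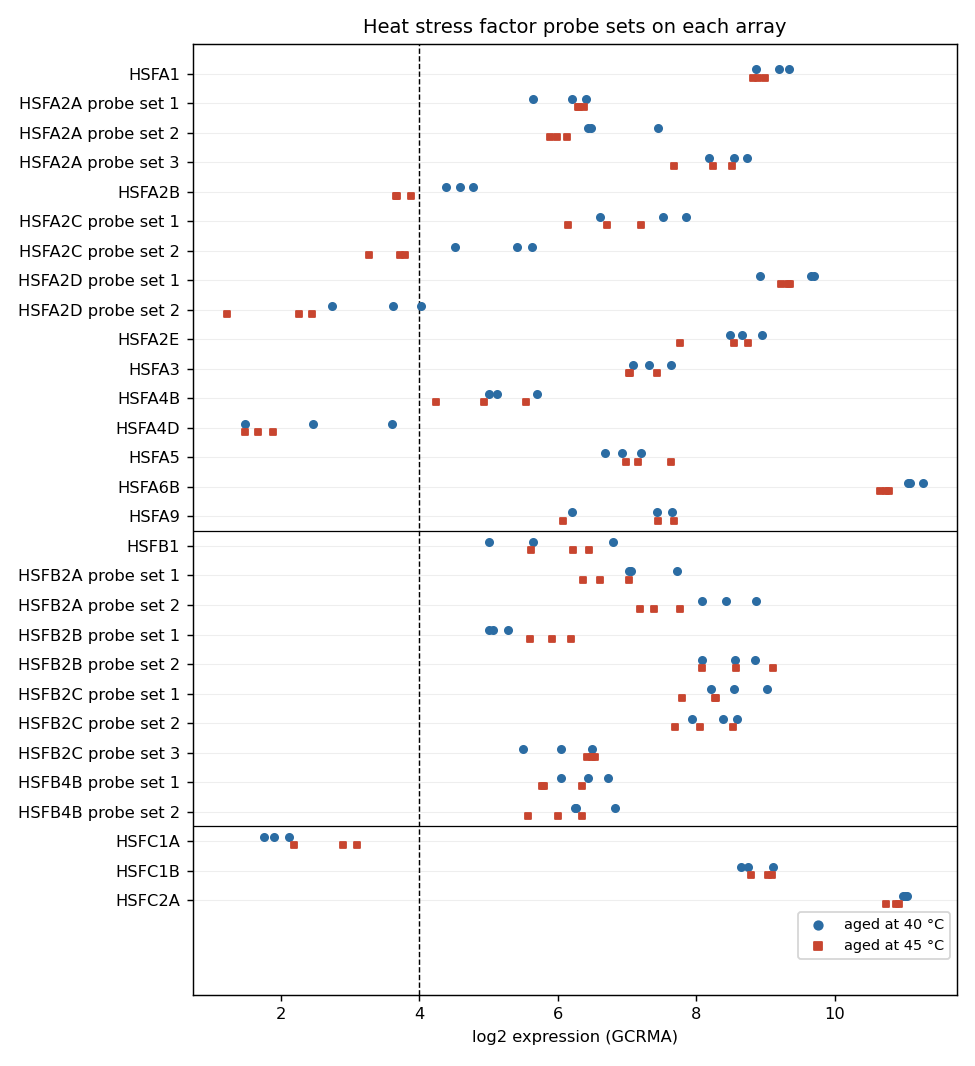
Log2 expression of each of the 29 heat stress factor probe sets (rows, classes A, B and C separated by lines) on each array, with circles for the 3 arrays at 40 °C and squares for the 3 at 45 °C. The dashed line marks the expression minimum of 4, under which HSFA2D probe set 2, HSFA4D and HSFC1A lie on average; levels of different probe sets are not comparable with each other.

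Heat stress factor transcripts as a family had somewhat lower values after ageing at 45 °C than at 40 °C in the deposited scaling, as did most genes. Of the 29 probe sets, 26 in 18 genes reached the expression minimum and were tested; 19 of the 26 were lower at 45 °C and 7 were higher. With the probe set of highest mean taken for each gene, 14 of 18 genes (77.8%) were lower, against 78.7% of all tested genes, and the median log2 difference was -0.29, against -0.26. This count depended on the scaling: 9 of 18 genes were lower with array medians set equal, 11 with quantile normalization and 10 with cyclic loess. The median over all genes moved as well, to -0.01, -0.07 and -0.10 in that order, beside -0.03, -0.08 and -0.07 for the members. The share of all genes that was lower was not counted in these scalings. Against probe sets of like mean level, the members' medians were lower in each bin: -0.36 against -0.04 for a mean of 4 to 6 (5 members), -0.43 against -0.26 for 6 to 8 (11 members), -0.22 against -0.20 for 8 to 10 (8 members) and -0.29 against -0.14 for 10 to 15 (2 members). These bins hold few members and were not tested. The probe sets set beside them, as in the shares of probe sets below, include those with no gene listed. Over all tested probe sets the median was -0.17, against -0.26 over genes, so this background is unlike the members, which all have a gene. The first holds HSFA2B and HSFA2C probe set 2, which reached the expression minimum only through their 40 °C arrays. The lower median of that bin is therefore no support. The median was -0.35 over 11 class A genes (10 lower), -0.47 over 5 class B genes (3 lower) and -0.01 over 2 class C genes (1 lower). By these probe sets the differences ran from -0.84 to 0.32 in class A, from -1.01 to 0.28 in class B and from -0.16 to 0.14 in class C, so the classes overlapped. The low end of class A is HSFA2B, whose place there and in the counts and medians of genes is no support. The next lowest class A gene was HSFA2C, at -0.63. Within classes A and B, single genes stood on either side of zero.

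With limma and a threshold of 0.05 on the Benjamini-Hochberg adjusted p, no heat stress factor probe set passed. Of all 22214 tested probe sets, 0% passed in either direction. The smallest adjusted p in the family was 0.165, for HSFA2C probe set 2. At an unadjusted p under 0.05 there were 5 lower and 1 higher among the 26, or 19.2% and 3.85%, against 13.8% and 5.37% of all tested probe sets. Of the 5 lower ones, 2 (HSFA2B and HSFA2C probe set 2) reached the expression minimum only through their 40 °C arrays, so their place in this count is no support. The arrays of the 2 temperatures did not overlap for 7 probe sets that were lower and 1 that was higher at 45 °C, or 26.9% and 3.85%, against 17.8% and 10.8% of all tested probe sets. The 7 lower ones again include HSFA2B and HSFA2C probe set 2, whose place is no support here or in the counts below. HSFB2A probe set 1, also among the 7, was apart by only 0.005. These shares rest on few members and lie near those of the whole array. Without replicate 2 at 40 °C, the unadjusted counts were 7 lower and 2 higher, against 14.1% and 3.57% of all probe sets. No member then passed the adjusted threshold, which 0.297% of all probe sets passed as lower and 0.0135% as higher. With arrays weighted by their quality there were 5 lower, 4 of them among the 5 above, and 1 higher, against 18.9% and 6.44%, and no member past the adjusted threshold, against 0.801% lower and 0.0675% higher among all probe sets. With the 3-prime minus 5-prime value as a covariate there were 7 lower and 2 higher, against 14.0% and 3.72%, and again no member passed the adjusted threshold, against 0.198% of all probe sets, all lower.

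**Figure D2:**
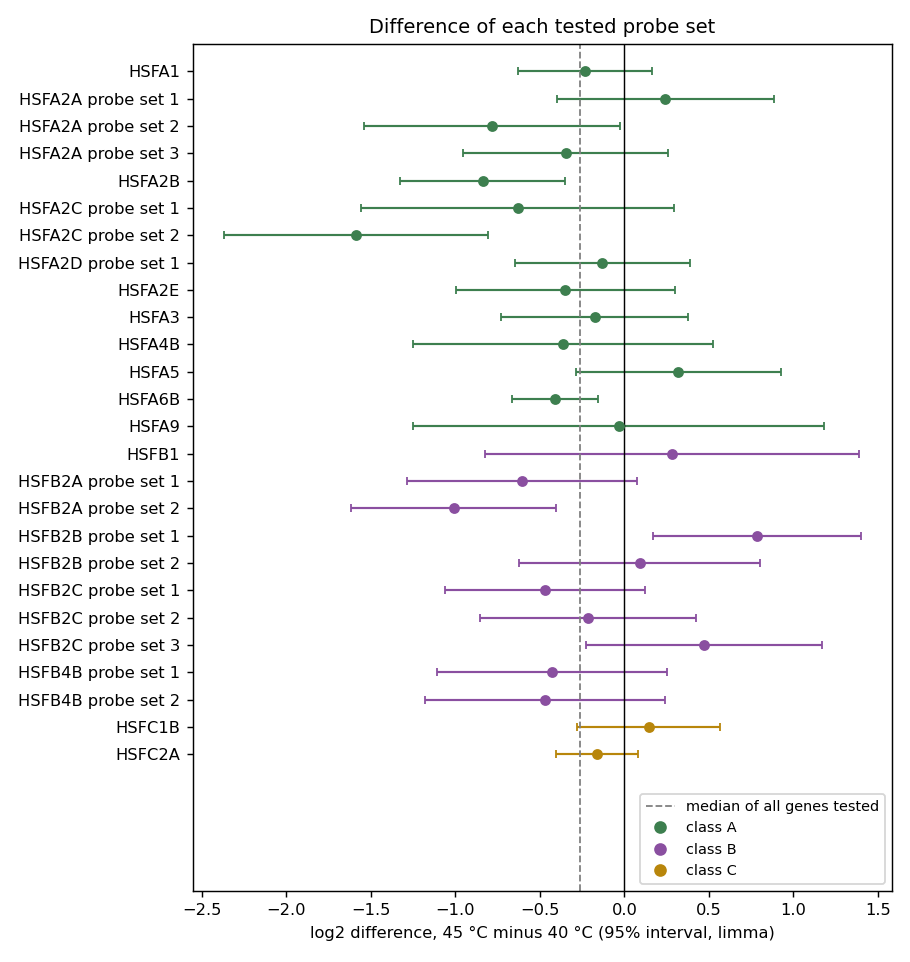
Log2 difference, 45 °C minus 40 °C, of each of the 26 tested heat stress factor probe sets, with its 95% interval from limma; colours give the class, and the dashed line is the median of all 11639 tested genes, -0.26. HSFA2C probe set 2 lies farthest to the left at -1.59 and HSFB2B probe set 1 farthest to the right at 0.78.

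Among the class A activators, HSFA1 encodes the factor that in tomato and Arabidopsis starts the heat response and is present before stress. Its log2 level averaged 9.13 ± 0.24 (SD, n = 3) after 40 °C ageing against 8.90 ± 0.08 (SD, n = 3) after 45 °C ageing, a difference of -0.23 (95% interval -0.63 to 0.17). The groups overlapped, with the lowest 40 °C value, 8.87, on replicate 2, the array that stood apart. Without that array the difference was -0.36, with an unadjusted p under 0.05 (limma adjusted p = 0.261). With array medians set equal it was 0.024 (limma adjusted p = 0.957). The level of this basal factor was thus not told apart between the temperatures on all 6 arrays.

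The HSFA2 group, factors that in Arabidopsis are themselves induced by heat and prolong the response, held the lowest difference of the family. HSFA2B had log2 values of 4.78, 4.38 and 4.59 at 40 °C and of 3.67, 3.89 and 3.68 at 45 °C. Every array at 45 °C was below every array at 40 °C, with a difference of means of -0.84. All 45 °C values are under the expression minimum, which the probe set reached only through its 40 °C arrays, so this is a description and the size of the difference is uncertain.

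HSFA2C was read by 2 probe sets, and both had lower means at 45 °C. Probe set 2 had log2 values of 4.52, 5.63 and 5.42 at 40 °C and of 3.80, 3.72 and 3.28 at 45 °C. The groups were apart, with a difference of means of -1.59, but here too all 45 °C values are under the minimum and the 40 °C arrays alone brought the probe set past it, so the values are a description. Probe set 1 overlapped, at 7.32 ± 0.64 (SD, n = 3) and 6.69 ± 0.53 (SD, n = 3), with a difference of -0.63 ± 0.40 (SE). Without replicate 2 at 40 °C its difference was -0.99, with an unadjusted p under 0.05 (limma adjusted p = 0.225).

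The names of HSFA2C and HSFA2D need care. Their entries in the gene name table also carry names of acireductone dioxygenases, enzymes of methionine salvage (ARD1 and SIP2 for HSFA2C, ARD2 and SIP2A for HSFA2D), and that of HSFA2C is typed as a transcribed pseudogene. Probe set 1 of HSFA2C and probe set 2 of HSFA2D were designed from entries in the consecutive run of accessions that matches the rHsf numbers of 11 members. HSFA2C probe set 2 and HSFA2D probe set 1 were designed from other entries, and which transcript these read was not settled here.

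Both HSFA2D probe sets had lower means at 45 °C. Probe set 1 overlapped, at 9.43 ± 0.44 (SD, n = 3) and 9.30 ± 0.07 (SD, n = 3). Without replicate 2 at 40 °C its difference was -0.38, with an unadjusted p under 0.05 (limma adjusted p = 0.218), and with array medians set equal it was 0.126. Probe set 2, the one from the rHsf run, was too dim to be tested, with log2 values of 4.03, 2.73 and 3.62 at 40 °C and of 2.46, 2.27 and 1.23 at 45 °C. Its groups did not overlap, but all of these values except 4.03 are under the minimum of 4.

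HSFA2A had 3 probe sets that did not run the same way. Probe set 2 had log2 values of 6.44, 7.45 and 6.48 at 40 °C and of 5.89, 5.99 and 6.13 at 45 °C, a difference of -0.78 ± 0.33 (SE) without overlap (limma adjusted p = 0.252). Its highest value came from replicate 2 at 40 °C, the array that stood apart, and without that array the difference was -0.45 and its unadjusted p was above 0.05 (limma adjusted p = 0.364). Probe set 1 had the opposite sign, 0.24 ± 0.28 (SE), with its lowest value of 5.64 on that same array, and probe set 3 had -0.35 ± 0.26 (SE). The log2 ratio of probe set 2 to probe set 1 averaged 0.70 ± 0.97 (SD, n = 3) for the 40 °C arrays against -0.32 ± 0.16 (SD, n = 3) for the 45 °C arrays, so the probe sets of this gene gave unequal readings on the same arrays. HSFA2E, the last of the group, had a difference of -0.35 ± 0.28 (SE) with overlapping groups.

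HSFA6B, whose Arabidopsis namesake acts in abscisic acid signalling, showed the tightest replicates of the members with separate groups other than HSFC2A. Its log2 values were 11.09, 11.27 and 11.05 at 40 °C and 10.79, 10.74 and 10.66 at 45 °C. The gap between the groups was 0.27 and the difference -0.41 ± 0.11 (SE), or 1.33-fold higher at 40 °C (limma adjusted p = 0.177). With array medians set equal the difference was -0.16 (limma adjusted p = 0.436).

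HSFA9 carries the name of the seed maturation factor known from Arabidopsis and sunflower, though a shared name does not show that the rice gene has that role. Its log2 values were 7.44, 6.21 and 7.65 at 40 °C and 6.08, 7.68 and 7.44 at 45 °C. On each side 1 array was more than 1 log2 unit below the other 2, and the spread within groups far exceeded the difference of -0.03 (95% interval -1.25 to 1.18). The interval is wide, and any log2 difference within it remains compatible with the values of this gene.

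The remaining class A genes had overlapping groups. HSFA3, which in Arabidopsis is switched on by DREB2A, had a difference of -0.18 ± 0.24 (SE), and HSFA4B had -0.36 ± 0.38 (SE). HSFA5, described in tomato and Arabidopsis as an inhibitor of HSFA4 factors, was on the other side of zero with 0.32 ± 0.26 (SE). HSFA4D, known in rice as SPL7, a gene whose mutant forms lesions on the leaves, was under the minimum, averaging 2.52 ± 1.06 (SD, n = 3) on the 40 °C arrays against 1.68 ± 0.20 (SD, n = 3) on the 45 °C arrays, and was not tested.

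**Figure D3:**
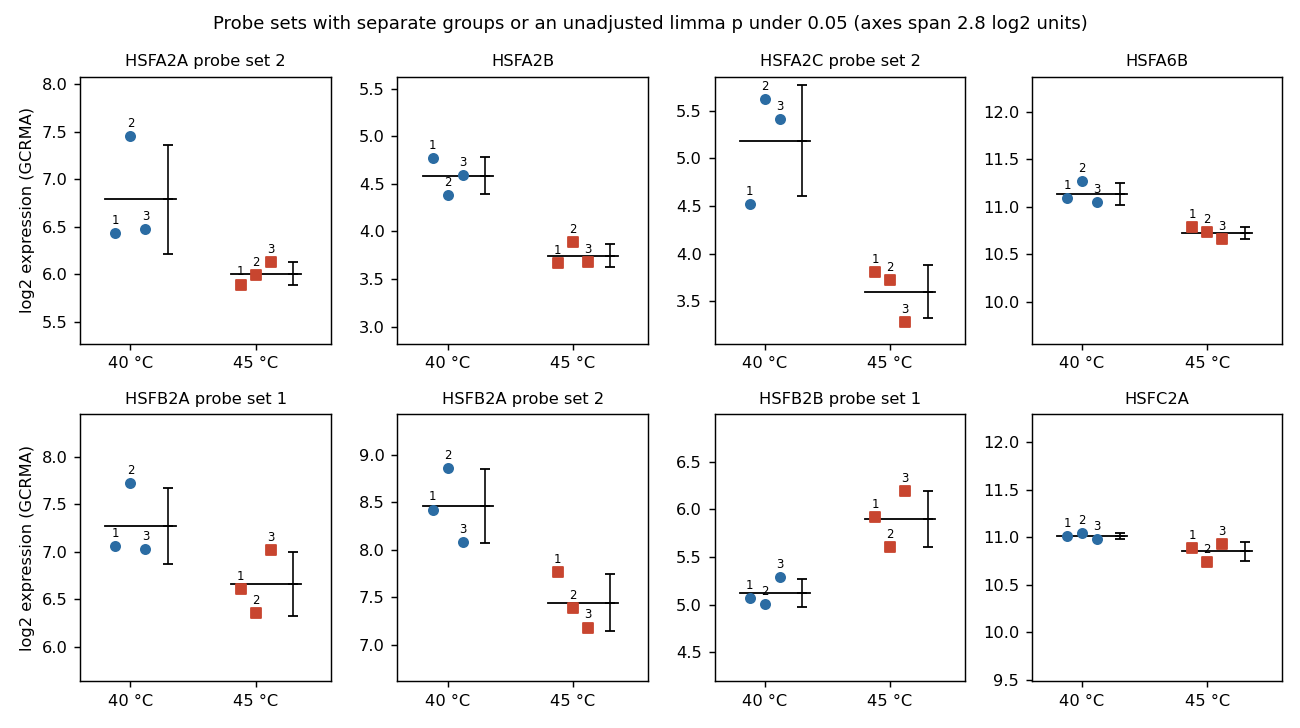
Log2 expression on each array of the 8 tested heat stress factor probe sets whose groups did not overlap, which include all 6 with an unadjusted limma p under 0.05; numbers are replicates, horizontal lines are means and bars are SD (n = 3). HSFB2B probe set 1 is the 1 panel in which the 45 °C arrays are the higher ones, and each panel spans the same log2 range.

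In class B, HSFB2A was lower at 45 °C by both of its probe sets, while of HSFB2B only the dimmer probe set had separate groups, on the higher side. HSFB2A, listed also as HSF1, gave its clearest values in probe set 2, which had log2 values of 8.42, 8.86 and 8.09 at 40 °C and of 7.77, 7.39 and 7.18 at 45 °C. The groups were apart by 0.32, with means of 8.46 ± 0.39 (SD, n = 3) for 40 °C against 7.45 ± 0.30 (SD, n = 3) for 45 °C. The difference was -1.01 ± 0.26 (SE), or 2.01-fold higher at 40 °C (limma adjusted p = 0.177; exact permutation p = 0.1 over the arrays, two-sided, the smallest possible).

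Probe set 1 of HSFB2A had log2 values of 7.06, 7.73 and 7.03 at 40 °C and of 6.61, 6.36 and 7.02 at 45 °C. The groups were apart by only 0.005, and the difference was -0.61 ± 0.29 (SE, limma adjusted p = 0.294). The 2 probe sets of HSFB2A thus had the same sign, with the larger difference in the one designed from the rHsf entry.

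HSFB2B encodes a factor described in rice as a negative regulator of drought and salt tolerance. Its probe set 1 had log2 values of 5.07, 5.004 and 5.28 at 40 °C and of 5.91, 5.601 and 6.19 at 45 °C. All arrays at 45 °C were above all arrays at 40 °C, and the difference was 0.78 ± 0.26 (SE), or 1.72-fold higher at 45 °C (limma adjusted p = 0.207). Probe set 2 did not show it: its means were 8.50 ± 0.39 (SD, n = 3) and 8.59 ± 0.52 (SD, n = 3), with a difference of 0.09 (95% interval -0.62 to 0.80).

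A ratio of these probe sets within an array is free of any scaling that adds a constant to all log2 values of that array; the pair was chosen after its values were seen, and the ratio is given without a test. The log2 ratio of HSFB2B probe set 1 to HSFB2A probe set 2 was -3.35, -3.86 and -2.80 at 40 °C and -1.85, -1.79 and -0.99 at 45 °C, higher by 1.79 on average. With probe set 1 of HSFB2A in its place the ratio was higher by 1.39 at 45 °C, and with probe set 2 of both genes by 1.10, again without overlap. With probe set 2 of HSFB2B over probe set 1 of HSFB2A it was higher by 0.70, and the groups overlapped. The log2 ratio of HSFB2B probe set 1 to its own probe set 2 was also higher at 45 °C, by 0.69 with overlapping groups, as large as the last of these shifts between the genes.

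HSFB2C, the other gene of this group, had 3 probe sets with overlapping groups and differences of -0.47, -0.22 and 0.47, so it gave no direction. HSFB4B, whose Arabidopsis namesake HSFB4 acts in root stem cells, had 2 probe sets at -0.43 ± 0.29 (SE) and -0.47 ± 0.31 (SE), alike in size and both overlapping. HSFB1, a coactivator of class A factors in tomato and a repressor in Arabidopsis, averaged 5.81 ± 0.91 (SD, n = 3) against 6.09 ± 0.43 (SD, n = 3) in log2 level for 40 and 45 °C, a difference within the spread of its arrays.

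Class C held the gene with the smallest spread of the family. HSFC2A had log2 values of 11.02, 11.04 and 10.98 at 40 °C and of 10.89, 10.74 and 10.93 at 45 °C. The groups were just apart, by 0.055, with a difference of -0.16 (95% interval -0.40 to 0.08, limma adjusted p = 0.399). That is nearer zero than the median of all genes, and it turned to 0.093 with array medians set equal. HSFC1B, which in rice is linked to salt and osmotic stress tolerance, had 8.83 ± 0.24 (SD, n = 3) and 8.97 ± 0.16 (SD, n = 3), a difference of 0.14 (95% interval -0.28 to 0.57). HSFC1A was too dim to be tested, with log2 values of 2.12, 1.76 and 1.91 at 40 °C and of 3.11, 2.19 and 2.89 at 45 °C. Its groups did not overlap, with all of these values under the minimum of 4.

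**Figure D4:**
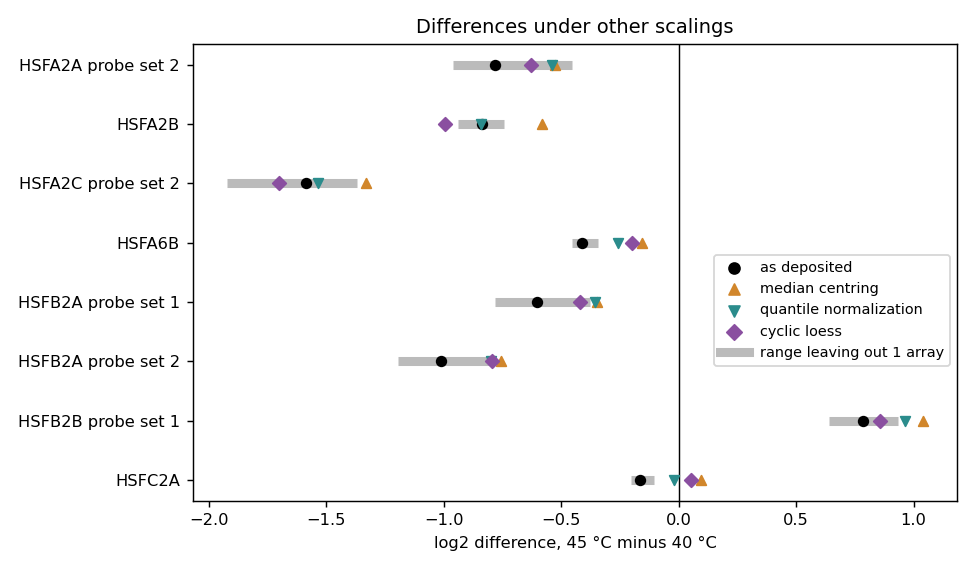
Log2 difference, 45 °C minus 40 °C, of the same 8 probe sets for the values as deposited and after 3 further scalings; grey bars span the differences found when each of the 6 arrays was left out in turn. HSFC2A is the 1 probe set that crosses zero, while HSFA6B moves from -0.41 to between -0.26 and -0.16.

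Because most genes were lower at 45 °C, the members were also read after other scalings of the arrays. HSFB2A probe set 2 had an unadjusted limma p under 0.05 in all 15 alternatives run, with differences of -1.20 to -0.75. Its limma adjusted p ranged from 0.0902 to 0.359 over them, so it did not pass. HSFA2B and HSFA2C probe set 2 had differences of -0.99 to -0.58 and -1.92 to -1.33, but entered only the 14 alternatives that admit probe sets brought in by their 40 °C arrays and dropped out at a minimum of 6, so these ranges show no stability. HSFB2B probe set 1 kept its sign, at 0.64 to 1.04, and its p was under 0.05 in 12 of 14 alternatives, the exceptions being those that left out either replicate 1 of the 40 °C group or replicate 3 of the 45 °C group. For HSFA6B the unadjusted p was above 0.05 in all 3 further scalings (medians set equal, quantiles, cyclic loess), and the limma adjusted p over all its alternatives was 0.0795 to 0.436.

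In the deposited scaling, the lists of DREB2 factors, chaperones and ascorbate peroxidases were mostly on the lower side as well. None in any list passed the adjusted threshold. The lists were made by name, and whether each gene is a target of heat stress factors was not tested. DREB2A and DREB2B, which in Arabidopsis act upstream of HSFA3, were the 2 tested DREB2 genes of 3 on the array. DREB2B averaged 7.90 ± 0.13 (SD, n = 3) against 7.17 ± 0.36 (SD, n = 3) in log2 level, a difference of -0.73 ± 0.24 (SE), and DREB2A had -0.64 ± 0.27 (SE). Both had separate groups and an unadjusted p under 0.05 (limma adjusted p = 0.201 and 0.253), whereas HSFA3 itself overlapped.

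Among the chaperone lists, all 17 tested small heat shock protein genes were lower at 45 °C by their brightest probe set, against 78.7% of all genes, with a median of -0.32. Of their 22 probe sets, 10 (45.5%) were lower at an unadjusted limma p under 0.05 and none higher, against 13.8% and 5.37% of all tested probe sets. The smallest p-values were those of HSP18.6 and HSP18.0, whose probe sets disagreed in size or sign. HSP18.6 had -0.67 ± 0.11 (SE) and -0.17 ± 0.08 (SE), and HSP18.0 had -0.46 ± 0.08 (SE), 0.13 ± 0.23 (SE) and 0.001 ± 0.30 (SE). The 5 tested genes of the HSP100 list had a median of -0.43, with CLPC2, a chloroplast chaperone of protein import and turnover, at -0.75 ± 0.22 (SE, limma adjusted p = 0.19) and CLPB1, which dissolves protein aggregates, at -0.40 ± 0.09 (SE, limma adjusted p = 0.172). The 3 HSP90 genes had a median of -0.22, led by HSP81-1 at -0.26 ± 0.09 (SE), and the 5 HSP40 genes a median of -0.33 with none at p under 0.05. BIP1, the HSP70 of the endoplasmic reticulum, had -0.34 ± 0.18 (SE), and the ascorbate peroxidases APX1 and APX2 had no probe set at p under 0.05. The medians of these chaperone lists stand beside -0.26 for all genes. The lists were read in the deposited scaling only, in which the array medians of the tested probe sets differed by -0.26 on average. Some of the 17 small heat shock protein genes lay nearer zero than that, so the count of lower ones depends on the scaling.

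**Figure D5:**
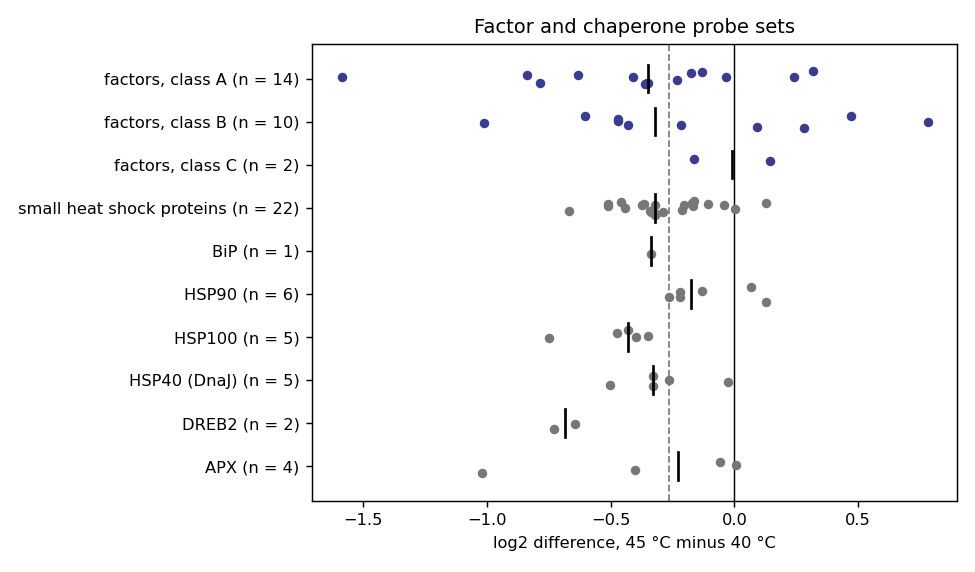
Log2 difference, 45 °C minus 40 °C, of each tested probe set of heat stress factors (blue) and of partner and chaperone lists (grey), with vertical bars at the median over probe sets and the dashed line at the median of all tested genes, -0.26. The factors of classes A and B spread from -1.59 to 0.78, more widely than the 22 small heat shock protein probe sets. The lowest point is HSFA2C probe set 2, which reached the expression minimum only through its 40 °C arrays. The part of signal level and precision in this spread was not tested.

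Some transcripts followed HSFB2A closely over the arrays. The measure was Pearson's r over the 6 arrays with probe set 2, among 13586 tested probe sets with 1 gene, of which 216 had an r of at least 0.95. The 5 named genes most alike were OsPP2C08, a type 2C protein phosphatase (r = 0.994), FKI, a fructokinase (r = 0.99), Cfi, a chalcone isomerase (r = 0.99), CCAMK, a calcium- and calmodulin-dependent kinase (r = 0.987), and HSFA6B, a member of the family (r = 0.979). Each ranked the arrays in the same order as HSFB2A. With 6 arrays in 2 groups that all share the same shift, such likeness is a description of these arrays alone. CCAMK had the difference closest to that of HSFB2A, -0.89 ± 0.26 (SE), and Cfi the smallest, -0.32 ± 0.23 (SE).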

How the data were processed

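The deposited log2 values were made by the authors with GCRMA, per the submitters' processing notes, which name no version. RNA input for labelling was 50 ng, per the labels' protocols. Arrays have no read depth, and precision is limited by there being 3 per temperature.

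Names came from the platform annotation, updated through the gene name table; 22436 probe sets had 1 gene. The 22214 non-control probe sets whose log2 values averaged 4 or more entered limma 3.58.1 (R 4.3.3; lmFit on temperature, eBayes with an intensity trend), two-sided, with Benjamini-Hochberg adjustment over all of them and 95% intervals. The fit was tested on simulated data. Array measures were compared by exact permutation. Members, lists and tests were chosen with earlier results of these data known. Array values are printed for members with an unadjusted p under 0.05 or separate groups and for HSFA9, added after its values were seen, and up to 2 genes per list and direction are named. The BiP pattern also matched 10 genes with bip-numbered or BIPP2C names, left out because those names are not of chaperones. FKBP, HSBP and galactinol synthase patterns matched no gene. No gene was listed under HSP70 names other than BiP or under HSP60 names.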

Additional observations from a re-analysis of the deposited data

How the results depend on the processing

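No heat stress factor probe set passed the adjusted threshold of 0.05 under any alternative run with limma. With array weights 193 probe sets of the whole array passed, none of them a member, and 4 members were under 0.1. The share of all probe sets under 0.1 was not counted. Of these 4, HSFA2B and HSFA2C probe set 2 reached the expression minimum only through their 40 °C arrays, so their place is no support. At an unadjusted p under 0.05 there were 6 of 26 (5 lower, 1 higher), against 3062 lower and 1194 higher of all 22214 probe sets. With a minimum of 6 there were 3 of 21 (3 lower, 0 higher), against 1948 lower and 266 higher in the whole array. These whole-array counts are out of the probe sets with a mean of 6 or more, not out of 22214. Those were 7009 with a mean of 6 to 8, 3953 with 8 to 10 and 1338 with 10 to 15. The lower members numbered 3 with array medians set equal, 3 with quantile normalization and 3 with cyclic loess. In the same order, 1072, 1490 and 1894 of all 22214 probe sets were lower. The higher ones numbered 2 without a minimum, 3 with medians set equal, 2 with quantile normalization and 2 with the 3-prime minus 5-prime covariate. Over the whole array, 5813, 3260, 2061 and 826 probe sets were higher in these settings. The first of these counts is out of 57258 probe sets and the others are out of 22214. Leaving out 1 array gave 5 to 9 in all, 4 to 7 lower and 0 to 2 higher, the most without replicate 2 at 40 °C. Over the whole array these runs gave 2155 to 3134 lower and 776 to 965 higher.

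With medians set equal, quantile normalization and cyclic loess, in that order, the family median of -0.29 became -0.0345, -0.0803 and -0.068, that of class A -0.0928, -0.141 and -0.129, that of class B -0.215, -0.227 and -0.251, and that of class C 0.246, 0.166 and 0.21. The median over all genes, -0.26 as deposited, became -0.00778, -0.0709 and -0.0969. Leaving out 1 array gave -0.332 to -0.189 for the family, -0.376 to -0.2 for class A, -0.566 to -0.26 for class B and -0.0573 to 0.0665 for class C. The 1 gene matched by symbol had -0.13. A minimum of 6 gave -0.232 for class A. Array weights gave -0.215 for class B and 0.0524 for class C, the covariate -0.249 and 0.0827. Class B was -0.0724 with probe sets averaged within genes, and class C 0.144 without a minimum. The family minus all genes, -0.03, was -0.133 without a minimum, 0.0051 with a minimum of 6, 0.0289 with cyclic loess, -0.132 with array weights, -0.151 with the covariate, 0.0608 with probe sets averaged, and -0.137 to 0.0903 leaving out 1 array.

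Of the 26 tested probe set differences, 18 kept their sign in every alternative run for them; the 3 untested ones were run only without a minimum. Under the same 3 scalings HSFA2D probe set 1 turned to 0.126, 0.0701 and 0.0953, HSFA3 to 0.0807, 0.0647 and 0.0216, and HSFA9 to 0.222, 0.183 and 0.157. With medians set equal HSFA1 turned to 0.0238; HSFB2C probe set 2 turned to 0.0384 and, with cyclic loess, 0.001, and HSFC2A to 0.0928 and 0.0506. HSFB2B probe set 2 turned to -0.0438 with array weights and -0.206 with the covariate. Leaving out 1 array gave -0.381 to 0.0064 for HSFA2D probe set 1, -0.479 to 0.462 for HSFA9, -0.126 to 0.772 for HSFB1 and -0.17 to 0.346 for HSFB2B probe set 2. The cause of these changes was not tested. The covariate and the setting without HSFA2C and HSFA2D (4 lower, 1 higher among 23 probe sets) were chosen after seeing the data. For the latter the whole-array counts were 3062 lower and 1194 higher.

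Deviations from group means correlated at 0.0303, -0.143 and -0.0371 between same-numbered replicates, within the -0.16 to 0.13 of differently numbered ones. The values gave no sign that the numbers pair the samples, but so few replicates cannot exclude it. With the replicate number as a block, 5 members were lower and 1 higher at p under 0.05. Of all 22214 probe sets, 2682 were lower and 820 higher at that p. In this fit 0 members passed the adjusted threshold, their smallest limma adjusted p was 0.283, and their median was -0.29.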
